A study of Mus musculus with 8 samples.

Results

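The adherens junction genes Ctnnb1, Cdh1, Ctnna1, Ctnnd1 and Jup, with the cadherin gene Cdh17, were followed through the epithelial cell classes of small intestinal crypts. Mice that lack an enhancer of Ctnnb1 were set beside control mice. For short, the 6 genes are called junction genes below. The 6 genes were taken by symbol from the 27998 genes of the deposited matrices, and each symbol matched 1 row. No measured value entered that rule, though the genes were chosen with earlier results of these data known. By point value, all 6 had a lower share of the UMIs in the enhancer knockout (KO) than in the control (WT) in every cell class. Ctnnb1, the gene beside the deleted enhancer, was lower by less than Cdh1, Ctnna1, Ctnnd1 and Jup. Counting intervals included 0 for Cdh17 in tuft-like and Ctnnb1 in enteroendocrine-like cells, and the direction for Cdh17 depended on how classes were drawn. Of all measured genes, 21.1% to 40.6% by class were lower by at least 1.5-fold. As a mean over classes, Ctnnb1 stood 0.01 on the log2 scale from the median of the longest quartile of genes, and -0.26 from genes of its own length.

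Adherens junctions hold neighbouring epithelial cells together. E-cadherin, the product of Cdh1, binds its counterpart on the next cell and carries β-catenin (Ctnnb1) or plakoglobin (Jup) on its cytoplasmic tail, α-catenin (Ctnna1) ties that complex to actin filaments, and p120-catenin (Ctnnd1) binds nearer the membrane and keeps the cadherin at the surface. β-catenin is also the transcriptional co-activator of canonical Wnt signalling, on which crypt base columnar cells depend, so the same protein serves adhesion and Wnt target transcription. Cdh17 encodes liver-intestine cadherin, an adhesion protein of enterocytes with a short tail that lacks the catenin binding region of E-cadherin.

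The KO mice were homozygous for a deletion of ieCtnnb1, an intestinal enhancer upstream of Ctnnb1 (Ctnnb1Δi.enh). The labels call the control group WT, whereas the study's text gives the controls as H11i.enh mice, which carried a reporter at the H11 locus with the Shh promoter, the core of the same enhancer, LacZ and iCre, so the enhancer core was present there in extra copies. Mice of both groups were 10-week-old females on a C57BL/6 background, and live EpCAM-positive crypt cells were sorted before droplet capture. The labels list 4 samples in each group, the study's legends speak of pooled mice and differ in their number, and the deposited counts form 1 matrix per group with no mark of the animal on any cell. Each group was therefore 1 sample. No test between groups could be made, and all intervals below are 95% intervals of counting error only, with no part for the spread between animals.

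The 2 guide RNAs used to cut out the enhancer are shown because they define the deleted allele. They are the stretches between the parts that the study's 2 template oligos share, reverse-complemented, with no part in capitals, and their position in the genome was not determined here.
sgRNA3: ccccttacttgatccccaaa
sgRNA13: aagccttcctatgatgagg

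Cells were put into 8 classes by marker genes: CBC-like (crypt base columnar, 565 WT and 426 KO cells), TAC-like (transit-amplifying, 848 WT and 509 KO cells), imEC-like (immature enterocyte, 523 WT and 397 KO cells), mEC-like (mature enterocyte, 988 WT and 883 KO cells), GC-like (goblet, 1323 WT and 473 KO cells), PC-like (Paneth, 3312 WT and 1084 KO cells), EEC-like (enteroendocrine, 212 WT and 110 KO cells) and TC-like (tuft, 134 WT and 83 KO cells). In all, 7905 of 10588 WT cells (74.7%) and 3965 of 5881 KO cells (67.4%) entered a class. Each of the 24 marker genes kept out of the gates was higher in its own class than in the other classes in both matrices. Epcam, the gene of the sorted surface protein, was present in every class, from 267 to 2310 CPM in WT and from 257 to 2149 CPM in KO (CPM, UMIs of a gene per 1000000 UMIs in its class, where a UMI marks a single captured transcript). Of other cells the sort could hold, the 3 fibroblast markers had no UMI in the gated cells of either matrix. The 6 lymphocyte markers summed to at most 36.7 CPM in any WT and 6.55 in any KO class, the 3 macrophage markers to at most 23.4 and 4.80, the 3 endothelial markers to at most 10.4 and 1.80, and the 2 erythrocyte markers to at most 0.23 and 0. KO cells were deeper than WT cells in every class, for example with a median of 12870 against 8008 UMIs in CBC-like and 13774 against 3072 in EEC-like cells. Barcodes with over 30% mitochondrial UMIs, which were left out, made up 32.0% of the KO and 11.9% of the WT barcodes, and 57 barcodes occurred in both matrices.

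Transcripts of the junction genes took a smaller share of the UMIs in KO than in WT cells of each class. Of the 48 values (6 genes in 8 classes), all lay below 0 on the log2 KO over WT scale, 46 had an interval wholly below 0, and 41 were lower by at least 1.5-fold. As a mean over the classes, each class weighing the same, Ctnnd1 was lower by 2.08-fold (1.90 to 2.28), Cdh1 by 1.96-fold (1.87 to 2.05), Ctnna1 by 1.95-fold (1.86 to 2.05), Jup by 1.86-fold (1.71 to 2.03), Ctnnb1 by 1.54-fold (1.48 to 1.61) and Cdh17 by 1.38-fold (1.33 to 1.43).

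Lower shares were common in the KO matrix, so these counts stand against a high background. In CBC-like cells 6 of the 6 genes were lower by at least 1.5-fold, as were 36.1% of the 9186 genes with at least 50 UMIs there. In TAC-like cells 5 of 6 were, against 37.8% of all genes, and in PC-like cells 5 of 6 against 23.4%. In GC-like cells the count was 5 of 6 against 32%, in EEC-like cells 5 of 6 against 24.8%, and in TC-like cells 4 of 6 against 21.1%. In imEC-like cells it was 6 of 6 against 39.8%, and in mEC-like cells 5 of 6 against 40.6%. Of the 7710 genes measured in 6 or more classes, 18.6% were lower by at least 1.5-fold in 6 or more of them, and 5 of the 6 junction genes were, Cdh17 being the exception with 3 classes. Among genes of the longest quartile by exon length, which holds Ctnnb1, Ctnna1, Ctnnd1 and Jup, the share was 36.3%. The median log2 ratio of all genes ran from -0.40 in mEC-like to 0.07 in TC-like cells, and all 48 values of the junction genes lay below the median of their class.

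**Figure D1:**
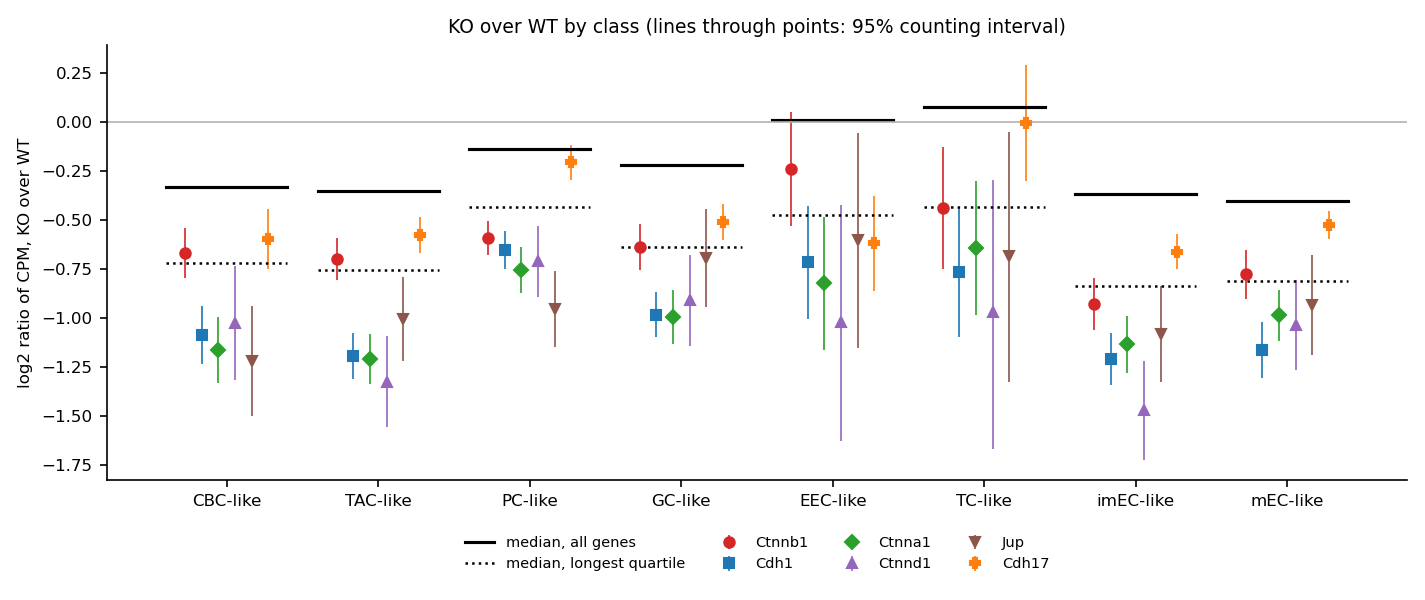
Log2 ratio of CPM, KO over WT (vertical axis), for the 6 junction genes in the 8 marker-gated classes (horizontal axis), with 95% counting intervals; solid bars are the median of all genes that reach 50 UMIs there and dotted bars that of the longest quartile of genes. In all 8 classes each point lies below the solid bar, and Ctnnb1 lies above Cdh1, Ctnna1, Ctnnd1 and Jup.

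Ctnnb1 (ENSMUSG00000006932, chromosome 9, 120929216 to 120960507 on the plus strand of GRCm38), which encodes β-catenin, varied little over the classes other than PC-like and was lower in KO in each. In WT it stood at 233 CPM in CBC-like cells, 207 in TAC-like, 243 in imEC-like, 212 in mEC-like, 193 in GC-like, 52.7 in PC-like, 157 in EEC-like and 194 in TC-like. In KO it stood at 146 CPM in CBC-like cells, 127 in TAC-like, 128 in imEC-like, 124 in mEC-like, 124 in GC-like, 34.9 in PC-like, 133 in EEC-like and 143 in TC-like. Apart from PC-like cells, where genes above 1% of the UMIs took 76.5% of the WT and 72.8% of the KO UMIs, the WT levels spanned no more than 1.55-fold, and 5 of the 7 neighbours in the order of levels had intervals that overlapped. The highest WT level, 243 CPM (229 to 258) in imEC-like cells, overlapped that of CBC-like cells, 233 CPM (219 to 247). In KO the 7 classes other than PC-like were closer still, within 1.18-fold, and intervals overlapped at 6 of the 7 steps of the order. CBC-like cells, 146 CPM (137 to 156), did not overlap TAC-like, GC-like or mEC-like cells, the last at 124 CPM (116 to 132). When the genes above 1% of the UMIs of any class were taken out of the denominator in all classes, the WT level in PC-like cells was 265 CPM against 279 in CBC-like cells, close to each other and unlike the values on all UMIs.

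The log2 ratio of Ctnnb1 was -0.67 (-0.80 to -0.54) in CBC-like cells, -0.70 (-0.81 to -0.60) in TAC-like, -0.93 (-1.06 to -0.80) in imEC-like and -0.78 (-0.90 to -0.65) in mEC-like. It was -0.64 (-0.76 to -0.52) in GC-like cells, -0.59 (-0.68 to -0.51) in PC-like, -0.24 (-0.53 to 0.05) in EEC-like and -0.44 (-0.75 to -0.13) in TC-like. The difference was therefore largest in imEC-like cells, where WT stood at 243 CPM (229 to 258) and KO at 128 CPM (119 to 137), and smallest in EEC-like cells, where 157 CPM (135 to 181) and 133 CPM (116 to 151) overlapped and the ratio included 0. EEC-like cells were also the class in which the median depths of the matrices differed by the largest factor, and with all cells thinned to 2000 UMIs the log2 ratio there was 0.05. In CBC-like cells, the stem cell class, KO stood 1.59-fold (1.46 to 1.74) below WT. The mean over classes was -0.62 (-0.69 to -0.56).

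**Figure D2:**
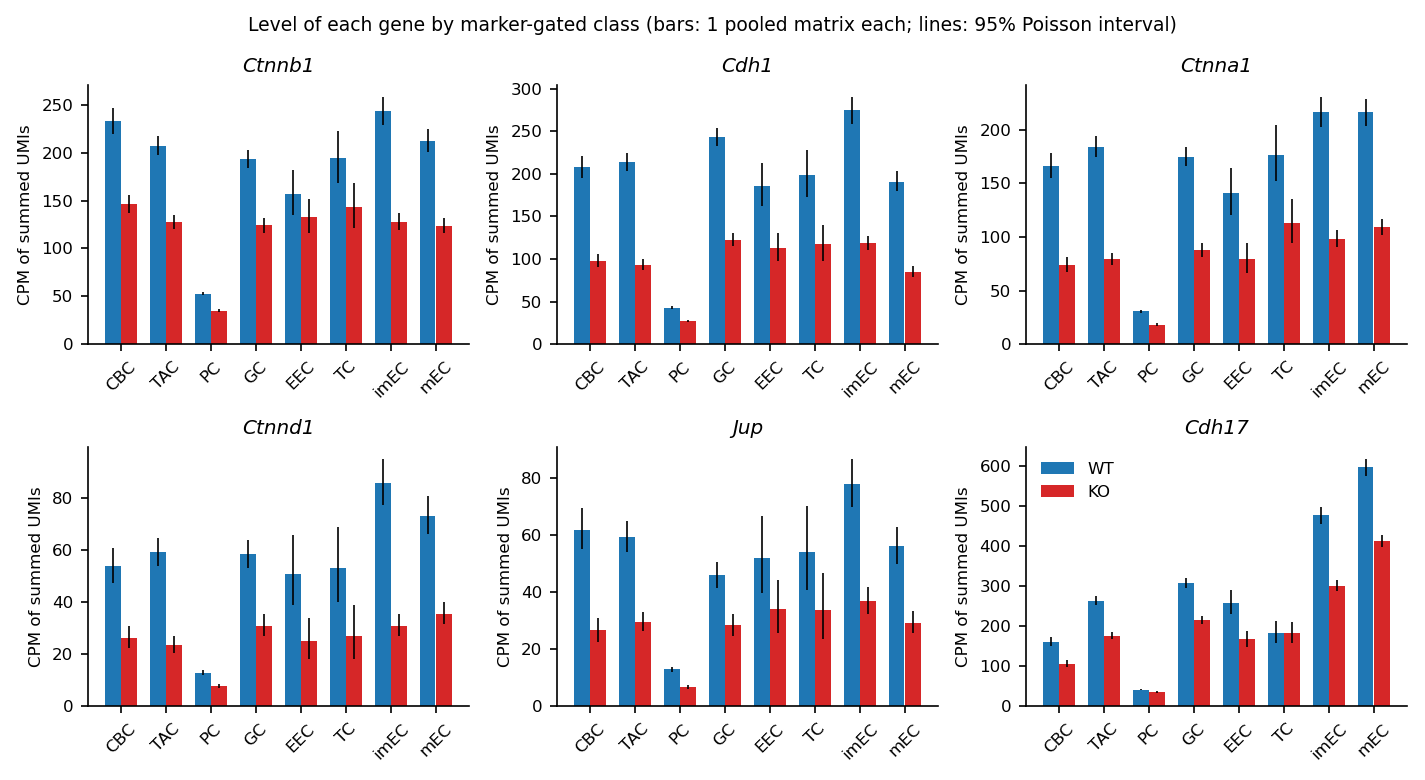
CPM of summed UMIs (vertical axis, from 0) for each gene in the 8 classes (horizontal axis; class names without the ending -like), blue for the WT and red for the KO matrix, 1 pooled matrix each, with 95% Poisson intervals. KO bars are below WT bars throughout, except that the 2 bars of Cdh17 in TC-like cells, at 184 and 183 CPM, are level.

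Beside these values the promoters of Ctnnb1, near which the deleted enhancer lies, and of its paralogue Jup, on another chromosome, are shown. They are the 250 bases before a RefSeq transcription start on GRCm38.p6, that of Ctnnb1 lying inside the longer gene of the GENCODE annotation. Capitals mark the SP1 box GGGCGG on either strand, which 32.7% of the 32851 promoter windows of this length hold and which occurred 3 times in the Ctnnb1 and 2 times in the Jup window. The CREB motif TGACG (either strand, 17.8% of windows) and the TCF/LEF core CTTTGA (either strand, 13.8%) were in neither of these windows. A second RefSeq start of Ctnnb1, whose window (chr9:120933328-120933577) overlaps the first, held 1 CREB motif and 2 SP1 boxes. GC content was 74.8% for Ctnnb1 and 62% for Jup, against a median of 52.4% over all windows. Ctnnd1, which was also lower in KO, has 2 windows that are not printed, and both held 0 SP1 boxes. Their GC content was 40% and 66.8%, and the second held 2 CREB motifs. The motif CCAAT (either strand, 33.8% of windows) occurred 2 times in each printed window and in each Ctnnd1 window. The part of any motif in the KO values was not tested.
Ctnnb1, chr9:120933150-120933399, plus strand: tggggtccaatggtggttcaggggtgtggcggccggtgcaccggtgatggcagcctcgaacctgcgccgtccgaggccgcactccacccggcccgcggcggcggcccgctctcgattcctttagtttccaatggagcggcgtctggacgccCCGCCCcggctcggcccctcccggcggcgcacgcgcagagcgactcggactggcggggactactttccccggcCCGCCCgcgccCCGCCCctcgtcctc
Jup, chr11:100397791-100398040, minus strand: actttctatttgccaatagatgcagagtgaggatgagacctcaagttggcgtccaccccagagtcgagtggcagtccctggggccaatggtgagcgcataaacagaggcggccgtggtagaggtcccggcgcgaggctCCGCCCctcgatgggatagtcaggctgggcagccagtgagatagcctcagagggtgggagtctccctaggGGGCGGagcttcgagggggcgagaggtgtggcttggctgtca

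Cdh1 (ENSMUSG00000000303, chromosome 8, 106603351 to 106670246, plus strand), the gene of E-cadherin, was about as evenly spread over the classes as Ctnnb1 and was lower in KO by more. In WT it stood at 208 CPM in CBC-like cells, 214 in TAC-like, 274 in imEC-like, 191 in mEC-like, 243 in GC-like, 42.8 in PC-like, 186 in EEC-like and 199 in TC-like. In KO it stood at 97.9 CPM in CBC-like cells, 93.4 in TAC-like, 118 in imEC-like, 85.1 in mEC-like, 123 in GC-like, 27.2 in PC-like, 113 in EEC-like and 117 in TC-like. The highest WT level, 274 CPM (259 to 290.3) in imEC-like cells, did not overlap the next, 243 CPM (232 to 254) in GC-like cells, whereas the following 4 steps down the order, from TAC-like to EEC-like cells, each overlapped. In KO, GC-like and imEC-like cells were level at the top.

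The log2 ratio of Cdh1 was -1.09 (-1.23 to -0.94) in CBC-like cells, -1.20 (-1.31 to -1.08) in TAC-like, -1.21 (-1.34 to -1.08) in imEC-like and -1.16 (-1.31 to -1.02) in mEC-like. It was -0.98 (-1.10 to -0.87) in GC-like cells, -0.65 (-0.75 to -0.56) in PC-like, -0.72 (-1.01 to -0.43) in EEC-like and -0.77 (-1.10 to -0.44) in TC-like. All 8 intervals lay below 0 and all 8 values were past 1.5-fold. The difference was largest in imEC-like cells and smallest in PC-like cells, and in the CBC-like, TAC-like, imEC-like and mEC-like classes KO stood at less than 1 transcript for every 2 in WT on this scale.

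Ctnna1 (ENSMUSG00000037815, chromosome 18, 35118859 to 35254779, plus strand), the actin-linking catenin, was lower in KO by nearly as much as Cdh1. An exon of it overlaps Lrrtm2 on the other strand. In WT it stood at 166 CPM in CBC-like cells, 184 in TAC-like, 217 in imEC-like, 216 in mEC-like, 175 in GC-like, 30.6 in PC-like, 141 in EEC-like and 177 in TC-like. In KO it stood at 74.3 CPM in CBC-like cells, 79.7 in TAC-like, 98.6 in imEC-like, 109 in mEC-like, 87.8 in GC-like, 18.1 in PC-like, 79.7 in EEC-like and 113 in TC-like. In WT both enterocyte classes were highest and did not differ beyond counting error, whereas TAC-like cells came next and did not overlap them. The log2 ratio ran from -1.21 (-1.34 to -1.08) in TAC-like cells to -0.64 (-0.99 to -0.30) in TC-like cells, with -1.16 (-1.33 to -0.99) in CBC-like and -0.99 (-1.12 to -0.86) in mEC-like cells, and all 8 intervals were below 0.

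Ctnnd1 (ENSMUSG00000034101, chromosome 2, 84600071 to 84650765 on the minus strand), the gene of p120-catenin, gave the largest mean difference of the 6 genes and rested on fewer UMIs. Its exons overlap those of Gm28635 on the same strand, so reads from the overlap need not all have been counted for Ctnnd1. In WT it stood at 53.9 CPM in CBC-like cells, 59.2 in TAC-like, 85.9 in imEC-like, 73.3 in mEC-like, 58.5 in GC-like, 13.0 in PC-like, 51.1 in EEC-like and 53.1 in TC-like. In KO it stood at 26.5 CPM in CBC-like cells, 23.7 in TAC-like, 31.1 in imEC-like, 35.7 in mEC-like, 31.1 in GC-like, 7.93 in PC-like, 25.2 in EEC-like and 27.2 in TC-like. The enterocyte classes led in WT, and imEC-like cells showed the largest single difference of all 48 values, -1.47 (-1.72 to -1.22) on the log2 scale, from 85.9 CPM (77.5 to 95.1) to 31.1 CPM (26.9 to 35.7). TAC-like cells followed with -1.32 (-1.56 to -1.09), and PC-like cells gave the smallest, -0.71 (-0.89 to -0.53). In TC-like cells the KO value came from 29 UMIs, and its interval, -1.67 to -0.29, was correspondingly wide.

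Jup (ENSMUSG00000001552, chromosome 11, 100368958 to 100397763 on the minus strand) encodes plakoglobin, the close relative of β-catenin that can take its place on E-cadherin and that also sits in desmosomes. It was lower in KO in all 8 classes. In WT it stood at 62.0 CPM in CBC-like cells, 59.4 in TAC-like, 77.9 in imEC-like, 56.1 in mEC-like, 45.9 in GC-like, 13.0 in PC-like, 52.0 in EEC-like and 54.1 in TC-like. In KO it stood at 26.6 CPM in CBC-like cells, 29.6 in TAC-like, 36.8 in imEC-like, 29.4 in mEC-like, 28.4 in GC-like, 6.72 in PC-like, 34.2 in EEC-like and 33.7 in TC-like. The ratio was furthest from 0 in CBC-like cells, -1.22 (-1.50 to -0.94), followed by -1.08 (-1.33 to -0.84) in imEC-like and -1.01 (-1.22 to -0.79) in TAC-like cells. It was smallest in the 2 rare classes, -0.60 (-1.15 to -0.06) in EEC-like and -0.68 (-1.33 to -0.05) in TC-like cells, where the intervals only just missed 0. With all cells thinned to 2000 UMIs the TC-like value turned to 0.11.

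Cdh17 (ENSMUSG00000028217, chromosome 4, 11758147 to 11817895, plus strand), the enterocyte cadherin, differed from the other 5 genes in its pattern over the classes. In WT it stood at 161 CPM in CBC-like cells, 263 in TAC-like, 476 in imEC-like, 595 in mEC-like, 307 in GC-like, 41.5 in PC-like, 258 in EEC-like and 184 in TC-like. In KO it stood at 107 CPM in CBC-like cells, 176 in TAC-like, 301 in imEC-like, 413 in mEC-like, 215 in GC-like, 36.0 in PC-like, 168 in EEC-like and 183 in TC-like. Apart from PC-like cells, its level was lowest in the stem cell class and highest in mature enterocytes in both matrices, 3.69-fold apart in WT and 3.87-fold in KO, while the other 5 genes spanned at most 1.70-fold in WT over the same 7 classes. Of the 7 steps in its WT order, 2 had overlapping intervals, those from TAC-like to EEC-like and from TC-like to CBC-like cells.

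As a mean over classes, Cdh17 stood nearest to WT of the 6 genes. The log2 ratio was -0.60 (-0.75 to -0.44) in CBC-like cells, -0.58 (-0.67 to -0.49) in TAC-like, -0.66 (-0.75 to -0.57) in imEC-like and -0.53 (-0.60 to -0.46) in mEC-like. It was -0.51 (-0.60 to -0.42) in GC-like cells, -0.21 (-0.30 to -0.12) in PC-like, -0.62 (-0.86 to -0.38) in EEC-like and -0.01 (-0.30 to 0.29) in TC-like. In TC-like cells the levels did not differ beyond counting error, 184 CPM (158 to 212) in WT and 183 CPM (158 to 210.1) in KO, and 3 of 8 classes were past 1.5-fold. The direction for Cdh17 depended on how the classes were drawn: with clusters of each matrix in place of the gates, the log2 ratio was 0.62 in PC-like, 0.23 in mEC-like, 0.02 in TC-like and 0.01 in GC-like cells. Clusters were made and named in each matrix by itself, so these classes need not match. GC-like clusters held 2109 WT and 502 KO cells. Left without a name were, among others, 541 KO cells led by Agr2 and Fcgbp and 563 WT cells led by Olfm4 and Gkn3. Mature enterocyte marker genes kept out of the gates differed in direction within mEC-like cells. Apoa1 stood at 8598 CPM in WT and 25111 in KO and Fabp2 at 9732 and 30302, whereas Lct stood at 310 and 248. Their part in the Cdh17 value was not tested.

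The balance between the junction genes was then compared, a measure in which the denominator of all other UMIs cancels. In KO cells there were more Ctnnb1 UMIs for each UMI of Cdh1, Ctnna1, Ctnnd1 and Jup. Per UMI of Cdh1, 1.12 UMIs of Ctnnb1 were counted in WT and 1.49 in KO CBC-like cells, a log2 change of 0.41 (0.22 to 0.61). Per UMI of Ctnna1, the numbers were 1.40 and 1.97, a change of 0.49 (0.28 to 0.70). Against Cdh1, Ctnna1, Ctnnd1 and Jup the change was above 0 in 8 of 8 classes each, with intervals above 0 in 6, 7, 6 and 3 classes. Its mean over the classes was 0.35 against Cdh1, 0.34 against Ctnna1, 0.43 against Ctnnd1 and 0.27 against Jup. Against Cdh17 it went the other way, with a mean of -0.16, intervals below 0 in 4 classes and above 0 in 1, the EEC-like class. On another scale, the mean over cells of log2(CP10K + 1) (UMIs per 10000 of a cell), the KO minus WT difference was -0.24 for Ctnnb1, -0.19 for Ctnnd1 and -0.12 for Jup, so that only Cdh1 (-0.42) and Ctnna1 (-0.40) were lower by more than Ctnnb1. UMI ratios between genes are not ratios per length and are read only between the matrices. That reading does not remove length, with which the KO over WT ratio moved across all genes, as given below. Genes of like length had a mean log2 ratio of -0.36 for the length of Ctnnb1. It was -0.28 for that of Cdh1, -0.48 for Ctnna1, -0.57 for Ctnnd1, -0.48 for Jup and -0.27 for Cdh17. The part of length in these changes was not tested.

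**Figure D3:**
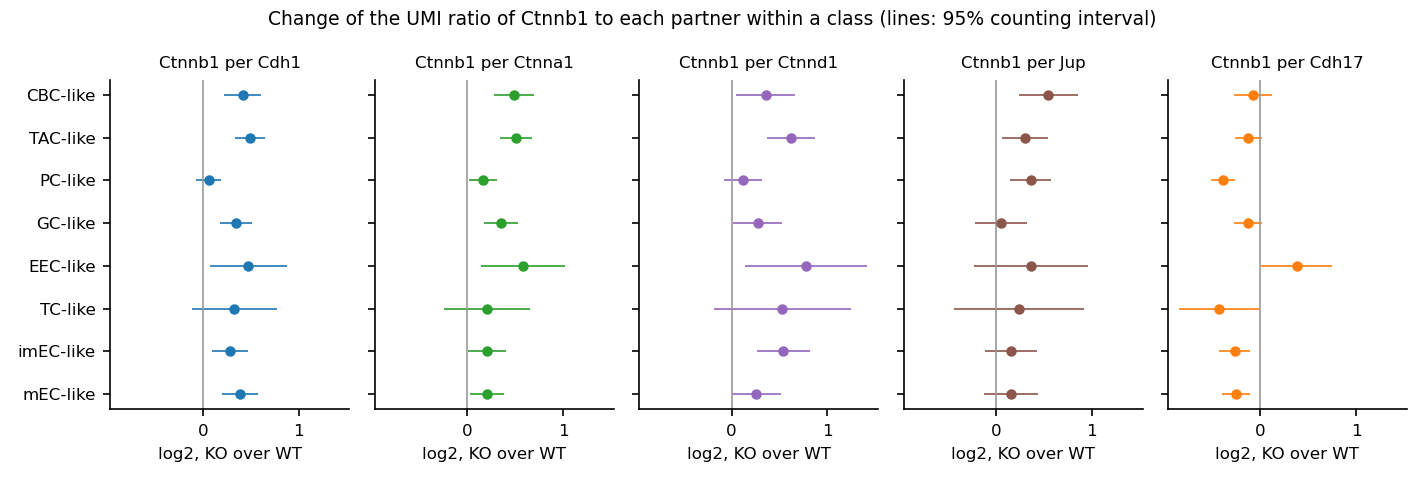
Log2 change, KO over WT (horizontal axis), of the number of Ctnnb1 UMIs per UMI of each partner in the 8 classes (vertical axis), with 95% counting intervals. Points lie right of 0 in all classes for Cdh1, Ctnna1, Ctnnd1 and Jup, and left of 0 in 7 of 8 classes for Cdh17.

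The shares of each gene in the UMIs of all 6 told the same in another form. Ctnnb1 made up 21% of them in WT and 22.8% in KO as a mean over classes and was higher in KO in 6 of 8 classes. In CBC-like cells its share was 26.3% (25% to 27.7%, of 4266 UMIs) in WT and 30.6% (28.9% to 32.3%, of 2908 UMIs) in KO. Cdh1 went from 21.3% to 18.2% and Ctnna1 from 17.4% to 14.9%, both lower in KO in 8 of 8 classes. Cdh17 went from 28.4% to 34%, higher in KO in 7 of 8 classes, and in mature enterocytes its share was 44.3% in WT and 51.9% in KO.

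Because KO cells were deeper, the absolute number of UMIs per cell gave another picture than the share. Ctnnb1 had more UMIs per cell in KO than in WT in 7 of 8 classes and Cdh17 in 8 of 8. For Ctnnb1, CBC-like cells held 1.99 UMIs per cell in WT and 2.09 in KO, and TAC-like cells held 1.94 UMIs per cell in WT and 2.45 in KO. For Cdh1, CBC-like cells held 1.77 UMIs per cell in WT and 1.40 in KO, and Cdh1 had fewer per cell in KO in 5 of 8 classes, as had Ctnnd1. For Ctnna1 and Jup the number of classes was 4 each way. These data cannot tell a larger amount of RNA in KO cells from a larger captured part of it.

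With every cell thinned to 2000 UMIs and shallower cells left out (between 11 and 170 WT and between 1 and 57 KO cells per class), the share of cells with a UMI could be compared at 1 depth. For Ctnnb1 it was 38.4% (34.3% to 42.6%) in WT and 27.4% (23.2% to 31.9%) in KO CBC-like cells, where the unthinned shares were 80% and 81.5%. For Cdh1 in the same class it was 32.0% (28.1% to 36.1%) and 16.7% (13.2% to 20.6%), from unthinned shares of 74.2% and 67.6%. The thinned share was lower in KO in 8 of 8 classes for Cdh1, Ctnna1 and Ctnnd1, in 7 of 8 for Jup and Cdh17, and in 6 of 8 for Ctnnb1. In EEC-like and TC-like cells the Ctnnb1 shares were 23.9% (18% to 30.7%) against 26.9% (18.8% to 36.2%) and 33.3% (24.9% to 42.6%) against 35.5% (24.9% to 47.3%), with wide overlap. No class of cells that should lack these epithelial genes was large enough to read a background from free RNA.

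Gene length moved with the KO over WT ratio across all genes, and the junction genes are long. Genes were split into quartiles of summed exon length. In TAC-like cells the shortest quartile had a median of 0.34 on the log2 KO over WT scale, the following ones 0.14 and -0.30, and the longest -0.76, and the same order held in all 8 classes. Ctnnb1, with 5192 bases of exon, lies just above the limit of the longest quartile at 5120 bases. Against the median of that quartile its ratio was 0.01 higher as a mean over classes, below it in 4 of 8. Cdh1, with 4574 bases in the third quartile, was -0.82 from the median of its quartile and below it in 8 of 8 classes, and Ctnna1, Ctnnd1, Jup and Cdh17 were -0.33, -0.42, -0.26 and -0.32 from theirs, each below it in 8 of 8.

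Against genes within 0.25 log2 units of their own length, a comparison added after the values were seen because Ctnnb1 lay at the limit of a quartile, all 6 genes were lower in 8 of 8 classes. The mean distance was -0.26 for Ctnnb1, -0.69 for Cdh1, -0.48 for Ctnna1, -0.49 for Ctnnd1, -0.41 for Jup and -0.20 for Cdh17. For Ctnnb1, the reading thus depended on the group of genes it was set against, while Cdh1, Ctnna1, Ctnnd1 and Jup stood further below genes of their own length than Ctnnb1 did. Cdh1 stood furthest from genes of like length and Cdh17 nearest. The part of transcript length in the KO values of the junction genes was not tested beyond these distances. The labels give v2 chemistry and the study's methods v2 or v3, so whether both libraries shared a chemistry is not known here, which bears on their depths and on values that follow length.

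**Figure D4:**
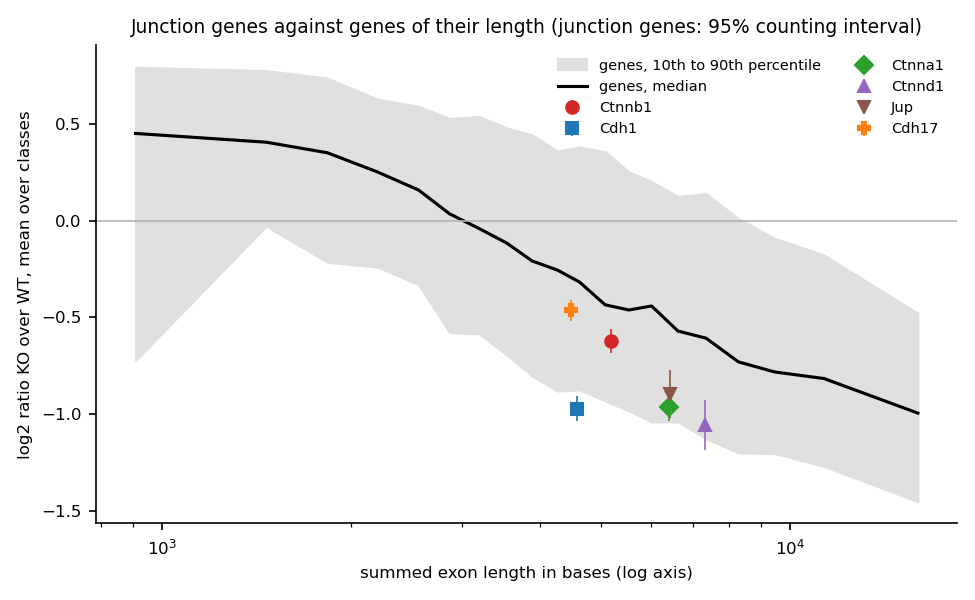
Log2 ratio KO over WT as a mean over classes (vertical axis) against summed exon length in bases (horizontal log axis): the line and band are the median and the 10th to 90th percentile of 7705 genes in 20 bins of length, and the symbols are the 6 junction genes with 95% counting intervals. The median declines with length, and all 6 symbols lie below it, Cdh1 the furthest at -0.97 and Cdh17 the nearest at -0.46.

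Other genes of the same junction were read from a list of 19 (the deposited matrices give nectins under their older Pvrl symbols and Afdn as Mllt4). In it 7 genes had under 50 UMIs in every class, among them Cdh2, Cdh3, Ctnna2, Ctnna3 and Ctnnd2, known mainly from other tissues, and 10 were measured in 6 or more classes. Of these 10, 7 were lower in KO by at least 1.5-fold in 6 or more classes and none was higher, beside 18.6% of all genes and 36.3% of the longest quartile, to which all 7 belong. Iqgap1, a scaffold that binds E-cadherin and β-catenin, had a mean log2 ratio of -1.09 (range over classes -1.38 to -0.80), and Vcl, the actin-binding partner of α-catenin, one of -1.11 (range over classes -1.41 to -0.64). Plekha7, which joins p120-catenin to microtubule ends, was at -1.24, Camsap3, its microtubule partner, at -0.88, Nectin1, a nectin adhesion receptor, at -1.19, Pkp4, a p120-catenin relative, at -0.77, and Ptprf, a receptor phosphatase, at -0.83. Afdn, the afadin that ties nectins to actin, stood at -0.36 (range over classes -0.53 to -0.05) and was past 1.5-fold in 0 classes. Nectin2 and Nectin3 were also past 1.5-fold lower in 0 classes, with means of 0.14 and -0.05, the second of which turned positive without mitochondrial and ribosomal protein genes in the denominator (0.03). The median of the list was below that of all genes in 8 of 8 classes.

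Genes of desmosomes, in which plakoglobin links the cadherins to keratin filaments, ranged from lower in KO to level. Of the 6 desmosomal genes measured in 6 or more classes, 2 were lower by at least 1.5-fold in 6 or more, beside 18.6% of all genes and 36.3% of the longest quartile, which holds both. These were Dsp (desmoplakin) with a mean log2 ratio of -1.37 (range over classes -1.68 to -0.88) and Dsg2 (desmoglein) with -1.01 (range over classes -1.50 to -0.58). Pkp1, in the third quartile by length and measured in 5 classes, had a mean of -1.18 and was lower by at least 1.5-fold in all 5. Pkp2 at -0.57 and Dsc2 at -0.52 were so in 4 and 3 of 8 classes, and Pkp3 at -0.06 in 0. Perp, a desmosomal membrane protein whose gene is short, stood at 0.06 (range over classes -0.16 to 0.34), or -0.01 without the genes above 1% of UMIs in the denominator. The list had its median below that of all genes in 7 of 8 classes, the exception being mEC-like cells.

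Tight junction genes went in 2 directions. The scaffold gene Tjp1 and cingulin (Cgn) had mean log2 ratios of -1.20 (range over classes -2.14 to -0.57) and -0.96 (range over classes -1.51 to -0.20), and tricellulin (Marveld2) had -0.95 (range over classes -1.38 to -0.67). The claudins Cldn3, Cldn7 and Cldn15, the 3 of this list with the most UMIs, were above 0 in all 8 classes, at means of 0.35, 0.60 and 0.51, and past 1.5-fold higher in 2, 4 and 2 classes; without mitochondrial and ribosomal protein genes in the denominator Cldn15 was above 0 in 7 of 8. The other 2 claudins of the list had means below 0: Cldn2 stood at -0.48 (range over classes -0.88 to 0.24) and was past 1.5-fold lower in 5 of 8 classes, and Cldn4 at -0.59 (range over classes -1.84 to 1.55), lower in 3 and higher in 1 of the 4 classes where it was measured. Cldn3, Cldn7 and Cldn15 lie in the 2 shorter quartiles by length, as does F11r, a junctional adhesion molecule, at -0.61 (range over classes -0.86 to -0.48) and lower in 5 classes. Over the list, 42 of 98 gene and class values were lower by at least 1.5-fold, 9 were higher and 47 were neither, shares of 42.9% and 9.18% beside 21.1% to 40.6% of all genes lower and 4.16% to 24.5% higher by class.

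Among 6 surface proteins of the same epithelium, Itgb1 and Itga6, integrins that hold cells to the basement membrane, had mean log2 ratios of -1.24 (range over classes -1.50 to -0.94) and -0.78 (range over classes -1.14 to -0.40), and Pcdh1, a protocadherin, had -1.04 (range over classes -1.70 to -0.63). Epcam stood at 0.04 (range over classes -0.21 to 0.40), or -0.04 without the genes above 1% of UMIs in the denominator, and Cdhr5, a cadherin of the brush border, at -0.37 (range over classes -0.87 to 0.24). Epcam, on which the cells were sorted and whose gene is in the second quartile by length, thus had nearly the same share in both matrices as a mean over classes. The list medians ran from -0.82 to -0.32.

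**Figure D5:**
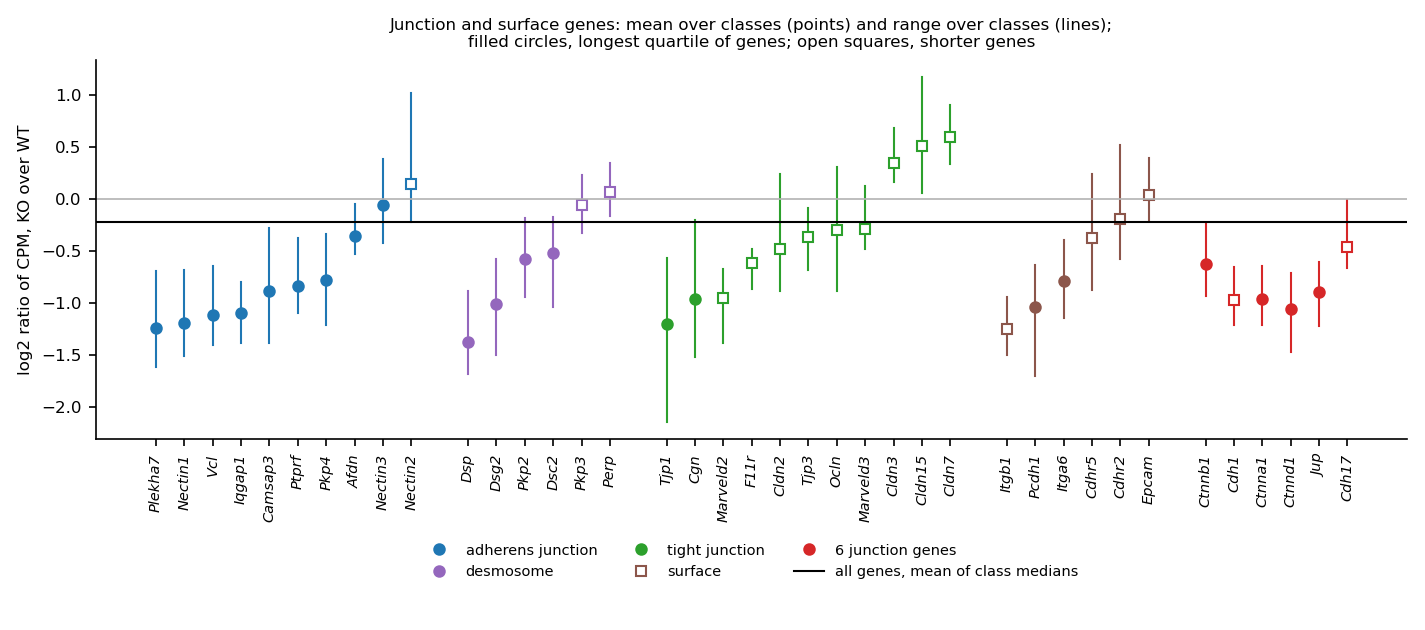
Mean log2 ratio over classes (points) and range over classes (vertical lines), KO over WT, for genes of the 4 lists measured in 6 or more classes, 1 left out, and for the 6 junction genes in red (horizontal axis, gene names); filled circles are genes of the longest quartile, open squares shorter genes, and the horizontal black line is the mean over classes of the median of all genes, -0.22. All filled circles shown but Nectin3 lie below the black line, and the points above 0 are open squares.

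Genes near Ctnnb1 on chromosome 9 were read as well. Ulk4, an exon of which overlaps Ctnnb1 on the opposite strand (120955351 to 121277197), and Entpd3 (120539818 to 120568327) had 44 UMIs each over all gated cells and were not compared. Rpl14 (120571444 to 120574654), a ribosomal protein gene, had a mean log2 ratio of 0.54 (range over classes -0.28 to 1.04). It was past 1.5-fold higher in 4 of 8 classes, beside 4.16% to 24.5% of all genes by class. Ribosomal protein genes together took 25.6% of the WT and 31.7% of the KO UMIs in CBC-like cells, but 8.82% and 7.13% in mEC-like cells. Trak1 (121297502 to 121474918), a mitochondrial transport adaptor, had -0.81 (range over classes -1.18 to -0.19) and was past 1.5-fold lower in 6 of 8 classes. Of all genes 18.6% were lower in 6 or more classes, and of the longest quartile, which holds Trak1, 36.3%. By quantitative PCR on RNA of whole small intestinal crypts, the study found no change of Ulk4, Rpl14 or Entpd3 in the knockout. That measure is not the share of UMIs by class used here. The part of the deletion in the values of Rpl14 and Trak1 was not tested here. Zfp619, which had been put on this list, lies on chromosome 7 in the annotation and had 49 UMIs. Where exons of Ctnnb1 and Ulk4 overlap, their reads can be told apart only if the counting used strand. An exon of Ctnnb1 also overlaps Mir7090 on the same strand.

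The genes whose level ran most like that of Ctnnb1 were sought over the 16 points formed by the 8 classes in both matrices, among 2301 genes with a mean of at least 50 CPM. The closest were Aplp2, an amyloid precursor relative (Pearson r = 0.983 on log2(CPM + 10)), Csnk1a1, the casein kinase that phosphorylates β-catenin (0.981), Gsk3b, the kinase that phosphorylates it next (0.980), March7, a ubiquitin ligase (0.979), and Wapl, a cohesin release factor (0.976). Among the junction genes, r with Ctnnb1 was 0.967 for Ctnna1, 0.964 for Jup, 0.960 for Cdh1, 0.924 for Ctnnd1 and 0.792 for Cdh17. The gene closest to Cdh1 was Zbtb7a (0.983), to Ctnna1 Tsc22d4 (0.986), to Ctnnd1 the spectrin gene Sptbn1 (0.979), to Jup Wapl (0.987) and to Cdh17 Lypla1 (0.991). The points share 2 libraries, and the low PC-like and the lower KO points weigh on every one of these values.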

How the data were processed

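Single-cell 3′ RNA sequencing counts of sorted crypt cells were used. The deposited matrices hold raw UMI counts per gene and barcode made by the authors with Cell Ranger (version 4.0.0 per the file headers, 2.1.1 per the labels) on mm10, the UCSC name of GRCm38. There were 15987 WT barcodes (median 5093 UMIs) and 12763 KO barcodes (median 1975).

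Barcodes with at least 200 genes, at most 30% mitochondrial UMIs and at least 1500 UMIs were scored for each class as the mean z-score (at most 10) of log(1 + counts per 10000) over its gate genes, z being taken over both matrices. A cell entered the class of its highest score if that was at least 0.75 and led the second by at least 0.5; 12.6% of WT and 14.3% of KO cells lay within 0.1 of a limit. Doublets were kept; 890 WT and 396 KO gated cells passed 2 or more gates. UMIs were summed per class and matrix. Levels have exact Poisson intervals, ratios exact conditional binomial intervals, shares exact Clopper-Pearson intervals, and means over classes and ratios between genes intervals from Poisson variances on the log scale. Exon lengths and positions came from GENCODE M21, which held 98.7% of the identifiers. The ratio code was tested on simulated data.

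The genes, lists and gates were chosen with earlier results of these data known. Of each list, the 3 genes with most UMIs and those past 1.5-fold in the same direction in 6 or more classes were named; the 5 genes most like Ctnnb1 and the single gene most like each other member were named. A gene of the tight junction list that this rule names is not reported here, though the counts over the list hold it. Nectin2, Nectin3, Dsc2, Pkp1, Pkp2, Pkp3, Cldn2, Cldn4 and F11r were named after their values had been seen, as were those without enough UMIs, Apoa1, Fabp2 and Lct. Alternatives were other filters, denominators, depths, gates and doublet limits, and leiden clusters (scanpy 1.11.5, leidenalg 0.10.2, 2000 variable genes without the junction genes, 30 components, 15 neighbours, resolution 1) named from the same markers. Software was Python 3.11.15, numpy 2.4.6 and scipy 1.17.1.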

Additional observations from a re-analysis of the deposited data

Results flagged for a closer look

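Barcodes with over 30% mitochondrial UMIs, which no comparison above used, held transcripts of all 6 junction genes, above the limit that a count of 0 allows. With mitochondrial genes out of the denominator, the 1898 WT barcodes of this kind stood at 171 CPM for Ctnnb1, 185 for Cdh1, 170.3 for Ctnna1, 57.0 for Ctnnd1, 49.9 for Jup and 246 for Cdh17. The 4084 KO barcodes stood at 115 CPM for Ctnnb1, 117 for Cdh1, 99.9 for Ctnna1, 32.2 for Ctnnd1, 34.9 for Jup and 251 for Cdh17. KO was the lower for Ctnnb1, Cdh1, Ctnna1, Ctnnd1 and Jup and level for Cdh17, without classes and with the depths of these barcodes unmatched. Ctnnb1 made up 19.4% of the UMIs of the 6 genes in these WT barcodes and 17.7% in the KO ones. Over all gated cells together its share was 21.6% in WT and 22.0% in KO, and it was higher in KO in 6 of 8 classes. No group held enough samples for a search for outlying samples.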

How the results depend on the processing

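The mean log2 ratio over classes stayed below 0 for all 6 genes under the 13 alternatives run, and under 12 of them Ctnnb1 stayed nearer to 0 than Cdh1, Ctnna1, Ctnnd1 and Jup. The exception was the mean over cells of log2(CP10K + 1), with -0.24 for Ctnnb1, -0.42 for Cdh1, -0.40 for Ctnna1, -0.19 for Ctnnd1, -0.12 for Jup and -0.22 for Cdh17, a scale on which differences of genes with few UMIs are small by construction. The median of all genes subtracted gave -0.41 for Ctnnb1, -0.76 for Cdh1, -0.75 for Ctnna1, -0.84 for Ctnnd1, -0.68 for Jup and -0.25 for Cdh17. This subtraction and the changed denominators below move every gene of a class alike, so they could not change the order of the genes. The median of genes of like length subtracted, an alternative added after the data were seen, gave -0.26 for Ctnnb1, -0.69 for Cdh1, -0.48 for Ctnna1, -0.49 for Ctnnd1, -0.41 for Jup and -0.20 for Cdh17. Leiden clusters in place of gates gave -0.42 for Ctnnb1, -0.77 for Cdh1, -0.73 for Ctnna1, -0.86 for Ctnnd1, -0.69 for Jup and -0.16 for Cdh17, and a change in the share of Cdh17 in the 6 genes of 7.07 percentage points. The log2 ratio of Cdh17 turned to 0.62 in PC-like, 0.23 in mEC-like, 0.0059 in GC-like and, from -0.01, to 0.02 in TC-like clusters; the cause was not tested. Without genes above 1% of UMIs in the denominator the means were -0.70 for Ctnnb1, -1.05 for Cdh1, -1.04 for Ctnna1 and -0.54 for Cdh17, and without mitochondrial and ribosomal protein genes -0.54 for Ctnnb1, -0.89 for Cdh1, -0.88 for Ctnna1 and -0.38 for Cdh17, which by construction moves every gene of a class alike. Cells thinned to 2000 UMIs gave -0.54 for Ctnnb1, -0.86 for Cdh1 and -1.05 for Ctnna1, changes in share of 3.05 points for Ctnnb1, -1.99 for Cdh1, -3.78 for Ctnna1 and 4.11 for Cdh17, and 3 of 48 ratios above 0, 0.11 for Jup and 0.12 for Cdh17 in TC-like and 0.05 for Ctnnb1 in EEC-like cells. Cells of 5000 to 20000 UMIs gave -0.30 for Cdh17, and leaving out cells passing 2 or more gates and the deepest 5% gave -1.21 for Ctnnd1. A mitochondrial limit of 15%, at least 500 or 1000 genes and a stricter gate (a lead of 1) moved no mean beyond its counting interval. The background share of genes lower in KO, from 21.1% to 40.6% by class, was from 7.99% to 20.9% at 2-fold and from 25.6% to 42.9% with at least 10 UMIs per gene.

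No paired analysis was possible because the cells of all labelled samples of a group lie in 1 matrix and no barcode names its sample, and leaving out each replicate was not run for the same reason. The spread between animals is therefore unknown, and genotype, library and the H11i.enh reporter of the controls cannot be told apart. The all-gene median subtracted moved the mean over classes by 0.22.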

Other observations

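Cells that entered no class gave lower KO than WT values for all 6 genes as well. In 2683 WT and 1916 KO cells without a class, Ctnnb1 stood at 182 and 121 CPM, Cdh1 at 194 and 101, Ctnna1 at 146 and 76.7, Ctnnd1 at 53.9 and 27.1, Jup at 51.0 and 28.1, and Cdh17 at 236 and 182. In the 2507 WT and 2777 KO barcodes under 1500 UMIs, Jup stood at 40.9 and 40.1 CPM, level within counting error, while Cdh1 stood at 165 and 86.0. Ctnnb1 stood at 154 and 95.2 CPM there and Ctnnd1 at 49.6 and 27.3. Ctnna1 stood at 117 and 96.1 and Cdh17 at 144 and 134, each with overlapping intervals. In these barcodes Ctnnb1 was thus lower by more than Ctnna1 and Jup, unlike in the gated classes. Its share of the 6 genes was 22.9% in WT and 19.9% in KO.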
